A study of Mus musculus with 34 samples.

Results

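The difference between the dexamethasone (Dex) response of cells carrying the Y551A glucocorticoid receptor (GR) and that of cells carrying wild-type (WT) GR was examined gene by gene in 12 of the 34 libraries of the series, 3 for each line and treatment. The contrast was chosen by label: the Dex-minus-vehicle change in Y551A minus the same change in WT. The study is about the multivalent contacts of the receptor's ligand-binding domain, and this contrast asks which parts of the early hormone response change when the tyrosine is replaced by alanine. All groups of these 12 libraries were GR-knockout cells labelled mouse mammary adenocarcinoma that stably express GFP-tagged mouse GR. WT EtOH and WT Dex libraries came from the line D4-GFP-mGRwt, and Y551A EtOH and Y551A Dex libraries from the line D4-GFP-mGR-Y551A. The fit used all 18 libraries of set 1, so those of the line Y551A-Dim also enter its estimate of spread. A separate fit of set 2 used 16 libraries of WT, D647V and D647V-Tetra. Cells were kept for at least 24 h in medium with 10% charcoal/dextran-treated serum and 5 µg/ml tetracycline, received 100 nM Dex or ethanol (EtOH) for 2 h, and were mixed with 5% Drosophila S2 cells before RNA extraction. The knockout background, the GFP tag, the serum and the tetracycline were thus common to WT and Y551A, with and without Dex. Only 1 line per receptor form is described, so effects of the substitution and of the line that carries it cannot be told apart. Replicates are not stated to be separate cultures, and the p-values then measure only the spread between these libraries, which may be technical.

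GR is a ligand-activated transcription factor that waits in the cytoplasm with chaperones and enters the nucleus when it binds a glucocorticoid. There it binds palindromic response elements as a dimer and raises transcription of nearby genes, and it lowers other genes, many of them targets of AP-1 or NF-kB. Its direct targets in many tissues include kinases, negative regulators of inflammation and transcription factors that answer within hours, so a short treatment mostly reads the first wave.

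Library totals of the 12 libraries ran from 44998213 to 64449628 counted reads, and 20146 to 21674 genes had a count. Levels are CPM, counts scaled to the TMM-normalized library size, in which neither gene length nor the spike-in was used. The 3 libraries of a group differed by more than sampling noise in every group, and Y551A Dex replicate 1 stood apart most, with a chi-square per gene of 17.7 and 21.6 against the other 2 Y551A Dex libraries, which differed from each other by 4.79. Of 7 luminal markers, 3 passed the filter on low counts: Gata3 at 6.02 to 20.9 CPM, Krt8 at 0.216 to 0.797 CPM and Krt19 at 0.0808 to 0.431 CPM. Epcam had no read in any of the 12 libraries, which does not show that the gene is silent, and Krt18, Cdh1 and Elf5 did not exceed 0.0682 CPM. Of 5 mesenchymal or fibroblast markers, Vim stood at 4630 to 5360 CPM, Col1a2 at 2330 to 2600 CPM and Pdgfra at 22.2 to 39.3 CPM, while Col1a1 did not exceed 2.39 CPM and Dcn 0.0446 CPM. Summed immune markers reached 2.15 to 3.21 CPM, with Cd3e at 0. The receptor transcript, Nr3c1, read 277, 287 and 276 CPM in WT EtOH and 271, 266 and 267 CPM in WT Dex, against 342, 352 and 341 CPM in Y551A EtOH and 380, 374 and 377 CPM in Y551A Dex. It was therefore higher in Y551A than in WT by 0.30 log2 without hormone and 0.49 log2 with Dex, and all Y551A libraries lay above all WT libraries. Within Y551A it rose with Dex by 0.13 log2 (edgeR adjusted p = 0.0206). Counts by gene name do not separate reads of the introduced receptor from any reads of the knocked-out gene.

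The Dex response was smaller in Y551A for most genes whose response differed. With edgeR's quasi-likelihood test and an adjusted p below 0.05, 29 of 16140 genes were called, which is 0.180% of the genes tested. Of these, 19 had a more negative response in Y551A (0.118%) and 10 a more positive one (0.0620%). All 19 genes of the first group were induced in WT, and 18 of them also in Y551A, where the change was 33.9% to 82.7% of the WT change on the log2 scale (median 64.3%). Sorbs2, a cytoskeletal adaptor, was called as induced in WT and not in Y551A, and its Y551A change was 20.2% of that in WT. Of the 10 genes with a more positive response, 8 were repressed in WT, and their log2 change in Y551A was 19.8% to 55.4% of that in WT (median 30.8%). Both remaining genes, Tnfrsf1b and Lce1g, were induced in Y551A and not called in WT. The 2 responses are the terms of the difference, so these counts describe the 29 genes and test nothing further. In bulk libraries fewer cells that express a gene and less RNA per cell cannot be told apart.

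**Figure D1:**
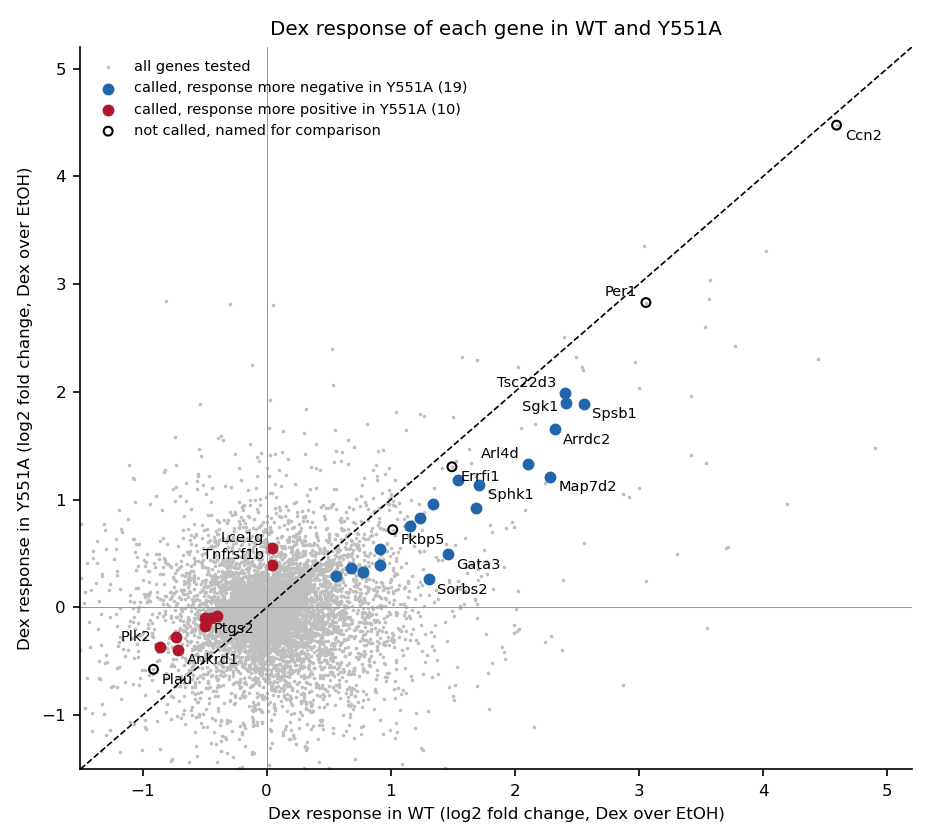
Dex response of every gene tested in WT (horizontal axis, log2 fold change) and in Y551A (vertical axis, log2 fold change). Blue points are the 19 called genes with a more negative response in Y551A, red points the 10 with a more positive one, open circles genes that were not called; the dashed line marks equal responses, and 126 genes beyond the axis limits of -1.5 and 5.2 are not drawn. Blue points lie below the line at positive WT responses, and Ccn2 and Per1 lie close to it.

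The 2 lines shared much of their response. Dex changed 549 genes in WT (323 up, 2.00% of genes tested, and 226 down, 1.40%; 3.40% in all) and 297 in Y551A (230 up, 1.43%, and 67 down, 0.415%; 1.84% in all). With no filter on low counts the split was 352 up and 341 down in WT and 272 up and 130 down in Y551A. The genes called in both lines numbered 243, of 549 in WT and 297 in Y551A, all with the same sign. A further 306 genes were called in WT alone, but the difference itself was called for only 5 of them, Sorbs2, Ptgs2, Dusp10, Enc1 and Chac1. Likewise 54 genes were called in Y551A alone, and the difference was called for 2, Tnfrsf1b and Lce1g. For the other genes of these groups a smaller or larger response was not shown.

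Promoter sequence is shown for the 4 called genes whose window holds a GR motif, since GR recognises inverted repeats of the half-site AGAACA and these windows show where such repeats lie near genes that respond less in Y551A. RefSeq windows (GRCm38.p6) from 250 bases before to 50 after an annotated start were searched for the core ACANNNTGT and for a longer motif, the core preceded by G and any base and followed by any base and C. Every match of the longer motif thus holds the core. Both motifs are their own reverse complement, so both strands are covered. Capitals mark the longer motif where the window holds it and the core elsewhere. The Map7d2 window holds a further core match, not in capitals, that starts 23 bases after the annotated start of that window. Each window reads 5′ to 3′ on the gene's strand and lies within the annotated span of its gene. Its annotated start thus lies inside that span and is not the outer end of the gene.
Sgk1: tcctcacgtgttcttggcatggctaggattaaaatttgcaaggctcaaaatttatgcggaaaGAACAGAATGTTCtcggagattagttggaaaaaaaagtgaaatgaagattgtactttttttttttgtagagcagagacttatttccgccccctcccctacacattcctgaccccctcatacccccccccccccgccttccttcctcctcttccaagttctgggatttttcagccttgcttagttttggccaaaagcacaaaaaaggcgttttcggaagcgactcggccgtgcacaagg
Map7d2: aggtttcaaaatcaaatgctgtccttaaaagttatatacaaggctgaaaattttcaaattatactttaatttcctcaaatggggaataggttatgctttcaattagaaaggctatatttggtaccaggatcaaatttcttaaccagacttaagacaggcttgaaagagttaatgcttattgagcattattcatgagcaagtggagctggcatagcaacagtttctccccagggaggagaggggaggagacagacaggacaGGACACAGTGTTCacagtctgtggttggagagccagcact
Bcl2l1: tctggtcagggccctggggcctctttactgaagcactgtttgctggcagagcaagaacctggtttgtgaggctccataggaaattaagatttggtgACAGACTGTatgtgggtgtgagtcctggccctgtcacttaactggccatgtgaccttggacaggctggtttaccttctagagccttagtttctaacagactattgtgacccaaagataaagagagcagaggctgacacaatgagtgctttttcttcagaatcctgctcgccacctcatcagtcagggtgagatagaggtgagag
Sorbs2: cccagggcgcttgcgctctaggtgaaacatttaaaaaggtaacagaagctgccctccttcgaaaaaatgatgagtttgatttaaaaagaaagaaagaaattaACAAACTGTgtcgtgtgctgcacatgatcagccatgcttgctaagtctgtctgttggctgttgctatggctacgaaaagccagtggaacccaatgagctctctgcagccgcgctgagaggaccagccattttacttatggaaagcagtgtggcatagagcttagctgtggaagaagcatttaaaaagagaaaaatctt
Sgk1 at chr10:21993640-21993939 (+ strand) and Map7d2 at chrX:159458875-159459174 (+ strand) held the longer motif, 188 bases before and 10 bases after the start. Bcl2l1 at chr2:152828440-152828739 (- strand) and Sorbs2 at chr8:45627501-45627800 (+ strand) held the core alone, 154 and 148 bases before it. Other windows, not printed, held a core of Sgk1 127 bases and of Sorbs2 202 bases before their starts. Of the 29 called genes, 24 had a window: the longer motif was found in 2 of the 16 genes with a more negative response and in none of the 8 with a more positive one, against 42 of 10147 tested genes with a window (0.414%). Among genes induced in the separate WT libraries of set 2, 5 of 178 held it (2.81%), and among those repressed there 1 of 42 did (2.38%). The 16 genes are all among these 178, so Sgk1 and Map7d2 are counted in both. The core was found in 4 of the 16 genes and in none of the 8. It was found in 19 of the 178 (10.7%), in 3 of the 42 (7.14%) and in 533 of all 10147 (5.25%). Called genes had more windows each, so the shares of windows are given too: 2 of 36 windows of the genes with a more negative response (5.56%) and 0.347% of all windows held the longer motif. For the core these were 6 of 36 (16.7%) and 4.35%. A match is a description of these letters and not a binding site.

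Most classic glucocorticoid targets tested were induced in each line, 31 of 39 in WT and 29 in Y551A, and 5 were called as induced less in Y551A. Sgk1 (mm10 chromosome 10, 21882184 to 21999903) encodes a serum- and glucocorticoid-induced kinase that promotes ion transport and survival. It read 146, 149 and 149 CPM in WT EtOH and 790.1, 788 and 793 CPM in WT Dex, against 177, 179 and 180.1 CPM in Y551A EtOH and 652, 672 and 671 CPM in Y551A Dex. All Y551A Dex libraries lay below all WT Dex libraries, while all Y551A EtOH libraries lay above those of WT. For Sgk1 the difference was -0.52 ± 0.0517 log2 (SE, edgeR adjusted p = 3.92e-06), from responses of 2.42 in WT and 1.90 in Y551A. Tsc22d3 (mm10 chromosome X, 140539528 to 140600659) encodes GILZ, a leucine-zipper protein that restrains AP-1 and NF-kB. Its levels were 34.3, 34.7 and 31.5 CPM in WT EtOH and 182, 175 and 176 CPM in WT Dex, against 37.2, 38.1 and 36.8 CPM in Y551A EtOH and 138, 161 and 146 CPM in Y551A Dex. The Dex libraries of the lines did not overlap, and Y551A was lower. Tsc22d3 thus changed by 2.40 log2 in WT and 1.99 in Y551A, and the difference was -0.42 ± 0.0704 (SE, edgeR adjusted p = 0.00413).

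Klf9 and the remaining pair of this group showed the same order of Dex levels. Klf9 (mm10 chromosome 19, 23141226 to 23168134), a Krüppel-like transcription factor that is a direct GR target in several tissues, read 25.4, 26.7 and 25.4 CPM in WT EtOH and 63.3, 60.6 and 59.1 CPM in WT Dex, against 28.4, 30.1 and 29.5 CPM in Y551A EtOH and 52.2, 52.7 and 52.02 CPM in Y551A Dex. For Klf9 the difference was -0.41 ± 0.0676 log2 (SE, edgeR adjusted p = 0.00373), from responses of 1.24 in WT and 0.83 in Y551A. Arrdc2 (mm10 chromosome 8, 70835129 to 70839720), an alpha-arrestin gene, read 8.90, 8.15 and 8.01 CPM in WT EtOH and 43.9, 42.6 and 39.05 CPM in WT Dex, against 7.17, 6.51 and 8.74 CPM in Y551A EtOH and 23.2, 25.1 and 22.3 CPM in Y551A Dex. The Dex libraries were far apart, and the EtOH libraries of the lines overlapped. Arrdc2 thus changed by 2.32 log2 in WT and 1.66 in Y551A, and the difference was -0.67 ± 0.127 (SE, edgeR adjusted p = 0.0174). Spsb1 (mm10 chromosome 4, 149896283 to 149955043) encodes a SOCS-box protein that directs ubiquitination of its targets, among them inducible nitric oxide synthase. It read 7.54, 6.46 and 7.99 CPM in WT EtOH and 40.1, 45.5 and 43.1 CPM in WT Dex, against 8.66, 7.78 and 8.15 CPM in Y551A EtOH and 29.6, 30.03 and 31.5 CPM in Y551A Dex. Again the Dex libraries did not overlap, and the EtOH libraries did. For Spsb1 the difference was -0.66 ± 0.11 log2 (SE, edgeR adjusted p = 0.00373), from responses of 2.55 in WT and 1.89 in Y551A. Of these 5 genes, Arrdc2 lost its call without Y551A EtOH replicate 3, without WT Dex replicate 1, or without either of WT EtOH replicates 2 and 3 (difference -0.76 to -0.54 and edgeR adjusted p up to 0.107 over the 12 fits that leave out 1 library). With the separate WT libraries of set 2 in place, the difference of Klf9 was -0.16 and was not called (edgeR adjusted p = 0.811).

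**Figure D2:**
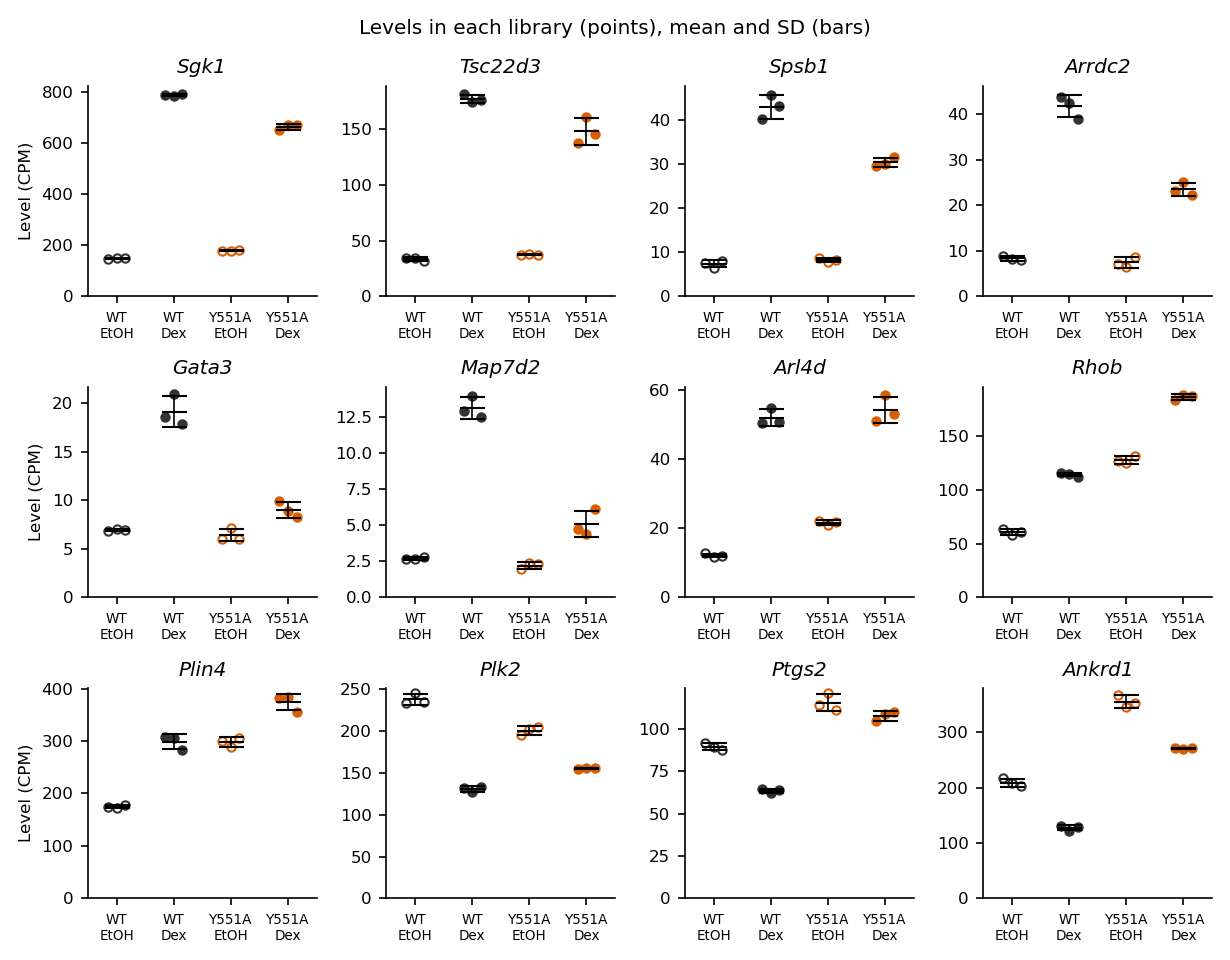
Level of 12 called genes in each library (points, CPM), with the mean and SD of the 3 libraries of a group; open points are EtOH, filled points Dex, dark WT and orange Y551A, and every axis starts at 0. Sgk1 Dex libraries sit at 788 to 793 CPM in WT and 652 to 672 in Y551A, and Rhob is higher in Y551A with and without Dex.

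Further induced genes with a more negative response encode regulators of transcription. The genes are ordered by role here, after the calls, and no role was tested as a list. Gata3 (mm10 chromosome 2, 9857078 to 9890034) encodes the zinc-finger factor that maintains luminal mammary cells. Its levels were 6.83, 7.07 and 6.98 CPM in WT EtOH and 18.6, 20.9 and 17.9 CPM in WT Dex, against 6.02, 7.18 and 6.05 CPM in Y551A EtOH and 9.94, 8.90 and 8.31 CPM in Y551A Dex. The WT Dex libraries stood above all others, the Y551A Dex libraries were higher than those of Y551A EtOH by a small margin, and the EtOH libraries of the lines overlapped. Gata3 thus changed by 1.46 log2 in WT and 0.49 in Y551A, and the difference was -0.96 ± 0.13 (SE, edgeR adjusted p = 0.000273). Id1 (mm10 chromosome 2, 152736251 to 152737410), an inhibitor of basic helix-loop-helix factors and a target of BMP signalling, read 25.8, 24.6 and 23.8 CPM in WT EtOH and 47.5, 45.5 and 46.95 CPM in WT Dex, against 35.8, 34.1 and 34.96 CPM in Y551A EtOH and 43.97, 47.1 and 46.5 CPM in Y551A Dex. Here the Dex levels of the lines overlapped, and the EtOH level was higher in Y551A. For Id1 the difference was -0.52 ± 0.0734 log2 (SE, edgeR adjusted p = 0.000465), from responses of 0.91 in WT and 0.39 in Y551A. Tead4 (mm10 chromosome 6, 128224288 to 128300823) encodes a TEAD factor that pairs with YAP. It read 20.3, 21.8 and 21.8 CPM in WT EtOH and 46.3, 48.1 and 47.7 CPM in WT Dex, against 21.1, 19.9 and 19.2 CPM in Y551A EtOH and 34.9, 33.6 and 33.1 CPM in Y551A Dex. EtOH libraries overlapped between lines, and Y551A Dex lay below WT Dex. Tead4 thus changed by 1.16 log2 in WT and 0.76 in Y551A, and the difference was -0.40 ± 0.0816 (SE, edgeR adjusted p = 0.0339). Tsc22d1, a relative of Tsc22d3, rose from 223 ± 3.18 to 329 ± 8 CPM in WT and from 278 ± 5.17 to 339 ± 13 CPM in Y551A (SD, n = 3 each). For Tsc22d1 the difference was -0.27 ± 0.0544 log2 (SE, edgeR adjusted p = 0.0263), from responses of 0.56 in WT and 0.29 in Y551A. Tead4 kept its call only without Y551A EtOH replicate 3, replicate 1 of WT Dex or of Y551A Dex, or WT EtOH replicates 2 or 3 (edgeR adjusted p up to 0.163). Tsc22d1 kept it only without replicate 2 of either WT group or without Y551A Dex replicates 1 or 3 (up to 0.119). With the WT of set 2 in place Id1 was not called (-0.46, edgeR adjusted p = 0.124).

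Map7d2 and Sorbs2, which encode proteins of the cytoskeleton, had the 2 most negative differences of the 29. Map7d2 (mm10 chromosome X, 159414572 to 159498757), a microtubule-associated protein gene, read 2.65, 2.63 and 2.81 CPM in WT EtOH and 12.9, 14.01 and 12.6 CPM in WT Dex, against 1.94, 2.35 and 2.33 CPM in Y551A EtOH and 4.76, 4.43 and 6.15 CPM in Y551A Dex. Y551A Dex reached less than the 12.6 CPM of the lowest WT Dex library in every case, and Y551A EtOH lay slightly below WT EtOH. Map7d2 thus changed by 2.29 log2 in WT and 1.21 in Y551A, and the difference was -1.07 ± 0.182 (SE, edgeR adjusted p = 0.00413). Sorbs2 (mm10 chromosome 8, 45507788 to 45827906), whose protein links actin to adhesion sites, read 4.65, 4.47 and 4.58 CPM in WT EtOH and 11.3, 11.01 and 11.6 CPM in WT Dex, against 3.99, 3.60 and 4.44 CPM in Y551A EtOH and 6.41, 4.60 and 3.36 CPM in Y551A Dex. The 3 Y551A Dex libraries ranged from below to above the Y551A EtOH libraries, where the response was not called (edgeR adjusted p = 0.661), while both WT groups were tight. For Sorbs2 the difference was -1.04 ± 0.198 log2 (SE, edgeR adjusted p = 0.0174), from responses of 1.31 in WT and 0.26 in Y551A. Tns1 (mm10 chromosome 1, 73910231 to 74124449), encoding the focal adhesion protein tensin, read 13.8, 14.8 and 15.3 CPM in WT EtOH and 47.9, 48.7 and 44.8 CPM in WT Dex, against 21.8, 20.8 and 22.1 CPM in Y551A EtOH and 47.1, 38.1 and 37.6 CPM in Y551A Dex. The Dex libraries overlapped between lines, since 1 Y551A library reached WT levels. Tns1 thus changed by 1.69 log2 in WT and 0.93 in Y551A, and the difference was -0.76 ± 0.152 (SE, edgeR adjusted p = 0.0292). Sorbs2 lost its call without WT EtOH replicate 2 or Y551A EtOH replicate 3 (edgeR adjusted p up to 0.0805), and Tns1 kept its call without WT Dex replicate 3 and without Y551A Dex replicate 1 but lost it without any other library (up to 0.122). Neither was called with the WT of set 2 in place (-0.94 and -0.71, edgeR adjusted p = 0.251 and 0.551).

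The other members of that group started higher in Y551A. Arl4d (mm10 chromosome 11, 101665541 to 101667832), an ARF-like GTPase gene, read 12.8, 11.7 and 11.9 CPM in WT EtOH and 50.5, 54.8 and 50.9 CPM in WT Dex, against 22.2, 20.9 and 21.8 CPM in Y551A EtOH and 51.1, 58.6 and 53.2 CPM in Y551A Dex. Dex levels of the lines overlapped, whereas the EtOH level of Y551A was above that of WT in every library. For Arl4d the difference was -0.77 ± 0.0817 log2 (SE, edgeR adjusted p = 6.33e-06), from responses of 2.10 in WT and 1.33 in Y551A. The difference of Arl4d was -1.2 with the WT of set 2 in place (edgeR adjusted p = 9.36e-09). Rhob (mm10 chromosome 12, 8497661 to 8500009), a small GTPase gene induced by stress, read 64.03, 58.4 and 60.5 CPM in WT EtOH and 116, 115 and 113 CPM in WT Dex, against 127, 125 and 132 CPM in Y551A EtOH and 184, 189 and 188 CPM in Y551A Dex. Y551A was higher than WT both without and with Dex, and Y551A EtOH even exceeded WT Dex. Rhob thus changed by 0.91 log2 in WT and 0.54 in Y551A, and the difference was -0.37 ± 0.0758 (SE, edgeR adjusted p = 0.0363). Counted in CPM rather than as a ratio, Rhob rose by 53.6 ± 1.93 CPM in WT and 58.7 ± 2.51 CPM in Y551A (SE, n = 3 per group), so its increment was not smaller in Y551A. Rhob kept its call in 4 of the 12 fits that leave out 1 library (without WT EtOH replicate 1 or any Y551A Dex library), the largest edgeR adjusted p being 0.132, and with the WT of set 2 in place it stood at -0.58 (edgeR adjusted p = 0.000907).

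The remaining induced genes have other roles. Plin4 (mm10 chromosome 17, 56100591 to 56109803), encoding a perilipin that coats lipid droplets, read 174, 173 and 178 CPM in WT EtOH and 308, 306 and 282 CPM in WT Dex, against 299, 288 and 306 CPM in Y551A EtOH and 382, 385 and 356 CPM in Y551A Dex. Y551A EtOH libraries stood where WT Dex libraries did. For Plin4 the difference was -0.44 ± 0.059 log2 (SE, edgeR adjusted p = 0.000256), from responses of 0.77 in WT and 0.33 in Y551A. Sphk1 (mm10 chromosome 11, 116530925 to 116536674), the kinase that makes sphingosine-1-phosphate, read 18.9, 18.6 and 18.1 CPM in WT EtOH and 61.5, 61.5 and 59.4 CPM in WT Dex, against 23.9, 23.04 and 25.1 CPM in Y551A EtOH and 50.5, 58.8 and 49.6 CPM in Y551A Dex. The EtOH level was higher and the Dex level lower in Y551A in every library. Sphk1 thus changed by 1.71 log2 in WT and 1.14 in Y551A, and the difference was -0.57 ± 0.0846 (SE, edgeR adjusted p = 0.000788). Bcl2l1 (mm10 chromosome 2, 152780668 to 152831728), the gene of the anti-apoptotic protein Bcl-xL, read 67.3, 65.1 and 68.3 CPM in WT EtOH and 167, 172 and 168 CPM in WT Dex, against 59.3, 59.3 and 54.99 CPM in Y551A EtOH and 111, 114 and 112 CPM in Y551A Dex. Y551A was lower than WT without and with Dex, with no overlap. For Bcl2l1 the difference was -0.38 ± 0.0553 log2 (SE, edgeR adjusted p = 0.000635), from responses of 1.34 in WT and 0.96 in Y551A.

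Foxred2 and Ly6a had differences close to the threshold. Foxred2 (mm10 chromosome 15, 77940522 to 77956722), an oxidoreductase gene of the endoplasmic reticulum, read 30.5, 29.1 and 29 CPM in WT EtOH and 88.7, 85.4 and 84.1 CPM in WT Dex, against 23.02, 23.97 and 22.8 CPM in Y551A EtOH and 54.9, 51.2 and 52.6 CPM in Y551A Dex. Y551A was below WT in both conditions in every library. Foxred2 thus changed by 1.54 log2 in WT and 1.19 in Y551A, and the difference was -0.36 ± 0.0734 (SE, edgeR adjusted p = 0.0339). Ly6a (mm10 chromosome 15, 74994877 to 74998031) encodes the surface protein Sca-1 and belongs to a gene family with similar copies, so its counts are less certain. Its levels were 41.3, 45.04 and 42.5 CPM in WT EtOH and 72.6, 65.3 and 68.7 CPM in WT Dex, against 95.5, 93.2 and 92.8 CPM in Y551A EtOH and 113, 123 and 126 CPM in Y551A Dex. All Y551A libraries exceeded all WT libraries of either treatment. For Ly6a the difference was -0.32 ± 0.0667 log2 (SE, edgeR adjusted p = 0.0363), from responses of 0.68 in WT and 0.36 in Y551A. Its increment was 25.9 ± 2.37 CPM in WT and 26.7 ± 4.12 CPM in Y551A (SE, n = 3 per group), and over the 19 genes the CPM increment was smaller in Y551A by more than 2 SE in 17, Rhob and Ly6a being the exceptions. Foxred2 kept its call only without WT EtOH replicate 1 or Y551A Dex replicate 1 (edgeR adjusted p up to 0.148) and Ly6a without replicate 2 of WT Dex, of WT EtOH or of Y551A Dex, or without Y551A Dex replicate 3 (up to 0.157). With the WT of set 2 in place, Plin4 (-0.37), Bcl2l1 (-0.32) and Ly6a (-0.18) were not called (edgeR adjusted p = 0.612, 0.131 and 0.807).

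Among genes repressed by Dex in WT, 8 were repressed less or not measurably in Y551A. Plk2 (mm10 chromosome 13, 110395046 to 110400844), a polo-like kinase gene that is a p53 target, read 233, 246 and 235 CPM in WT EtOH and 132, 127 and 133 CPM in WT Dex, against 195, 202 and 205 CPM in Y551A EtOH and 155, 156 and 156 CPM in Y551A Dex. Y551A started lower and ended higher than WT, and the groups did not overlap in either condition. Plk2 thus changed by -0.86 log2 in WT and -0.37 in Y551A, and the difference was 0.49 ± 0.0588 (SE, edgeR adjusted p = 4.78e-05). Ankrd1 (mm10 chromosome 19, 36111961 to 36120099), a muscle and stress-response gene used as a readout of YAP, read 217, 208 and 202 CPM in WT EtOH and 131, 122 and 129.8 CPM in WT Dex, against 368, 346 and 352 CPM in Y551A EtOH and 271, 269 and 271 CPM in Y551A Dex. It was higher in Y551A throughout, and it fell by 81.3 ± 4.97 CPM in WT and fell by 84.8 ± 6.58 CPM in Y551A (SE, n = 3 per group), so the CPM change was not smaller in Y551A. For Ankrd1 the difference was 0.32 ± 0.0521 log2 (SE, edgeR adjusted p = 0.00373), from responses of -0.71 in WT and -0.39 in Y551A. Gadd45a (mm10 chromosome 6, 67035096 to 67037457), a growth arrest and DNA damage gene, read 33.99, 34.8 and 32.96 CPM in WT EtOH and 21.1, 19.6 and 20.7 CPM in WT Dex, against 21.6, 21.2 and 20.2 CPM in Y551A EtOH and 16.5, 17.7 and 17.9 CPM in Y551A Dex. It was lower in Y551A in both conditions. Gadd45a thus changed by -0.73 log2 in WT and -0.27 in Y551A, and the difference was 0.46 ± 0.0938 (SE, edgeR adjusted p = 0.0339).

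The other repressed genes fell less than 1.5-fold in WT. Thbs1, encoding the matrix glycoprotein thrombospondin-1, went from 2825 ± 35.9 to 2001 ± 86.2 CPM in WT and from 2546 ± 92.6 to 2260 ± 79 CPM in Y551A (SD, n = 3 each). For Thbs1 the difference was 0.33 ± 0.0631 log2 (SE, edgeR adjusted p = 0.0201), from responses of -0.50 in WT and -0.17 in Y551A. Ptgs2, the gene of the prostaglandin synthase COX-2 and a well-known target of glucocorticoid repression, went from 89.5 ± 2.13 to 63.6 ± 1.20 CPM in WT and from 116 ± 5.10 to 108 ± 2.97 CPM in Y551A (SD, n = 3 each). The fall in Y551A was not called (edgeR adjusted p = 0.579). Ptgs2 thus changed by -0.49 log2 in WT and -0.10 in Y551A, and the difference was 0.39 ± 0.0708 (SE, edgeR adjusted p = 0.00938). Dusp10, a phosphatase of p38 and JNK, went from 29.8 ± 0.692 to 21.3 ± 0.653 CPM in WT and from 28.6 ± 0.934 to 26.1 ± 1.25 CPM in Y551A. Differences were 0.35 ± 0.0738 for Dusp10, 0.32 ± 0.0685 for Enc1, an actin-binding protein gene, and 0.35 ± 0.0755 for Chac1, a glutathione-degrading enzyme of the stress response (SE, edgeR adjusted p = 0.0363, 0.0482 and 0.0482).

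Most calls of the repressed genes ended when 1 library was left out. Plk2 and Ankrd1 were called in all 12 fits that leave out 1 library. Ptgs2 lost its call without WT EtOH replicate 1 or Y551A EtOH replicate 3 (edgeR adjusted p up to 0.0637), and Thbs1 without Y551A EtOH replicates 1 or 2, Y551A Dex replicate 2, WT EtOH replicate 3 or either of WT Dex replicates 1 and 3 (up to 0.0931). Gadd45a and Chac1 kept their calls only without Y551A Dex replicate 1, Enc1 only without Y551A EtOH replicate 1, and Dusp10 only without WT Dex replicate 2 or Y551A Dex replicate 2 (up to 0.153, 0.217, 0.195 and 0.146). With the WT of set 2 in place, Plk2 was the only 1 of the 10 genes with a more positive response that was called (0.48, edgeR adjusted p = 0.000465), and the differences of Ankrd1 (0.05), Ptgs2 (5.2e-05) and Enc1 (0.06) were near 0.

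Tnfrsf1b and Lce1g rose with Dex in Y551A alone. Tnfrsf1b, a receptor of tumour necrosis factor, went from 71.2 ± 2.35 to 73.5 ± 3.29 CPM in WT and from 57.1 ± 0.56 to 75.1 ± 2.20 CPM in Y551A (SD, n = 3 each). For Tnfrsf1b the difference was 0.35 ± 0.0623 log2 (SE, edgeR adjusted p = 0.00785), from responses of 0.04 in WT and 0.40 in Y551A. Its Dex levels overlapped between lines, and the lower EtOH level of Y551A separated them. Lce1g, a late cornified envelope gene of a cluster of similar copies, went from 22.4 ± 0.791 to 23.1 ± 0.966 CPM in WT and from 45.2 ± 1.15 to 66.3 ± 3.65 CPM in Y551A. Lce1g thus changed by 0.04 log2 in WT and 0.55 in Y551A, and the difference was 0.51 ± 0.097 (SE, edgeR adjusted p = 0.0174). In the WT of set 2, however, Lce1g rose by 0.40 ± 0.0921 log2 (edgeR adjusted p = 0.0278), and the difference with that WT in place was 0.15 (edgeR adjusted p = 0.892). The call of Lce1g ended without WT Dex replicate 2, WT EtOH replicates 1 or 3, or Y551A EtOH replicates 2 or 3 (edgeR adjusted p up to 0.0767). For Tnfrsf1b the WT of set 2 gave 0.21 (edgeR adjusted p = 0.762).

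A smaller response did not always mean a lower level with Dex, because the lines differed before hormone was added. At the EtOH baseline 6855 genes (42.5% of those tested) differed between Y551A and WT, 3057 being higher (18.9%) and 3798 lower (23.5%), and with Dex 6630 did (41.1%), 3066 higher (19.0%) and 3564 lower (22.1%). Of the 19 induced genes, 11 were higher, 2 lower and 6 not called at baseline. With Dex, 12 were lower in Y551A, 3 were higher (Plin4, Rhob and Ly6a) and 4 were not called (Arl4d, Id1, Tsc22d1 and Tns1). Gata3, Spsb1, Map7d2, Sorbs2, Arrdc2 and Tead4 had no called baseline difference and were lower with Dex, while Sgk1, Sphk1, Klf9 and Tsc22d3 were higher at baseline and lower with Dex. Of the 10 other genes, 7 were higher with Dex in Y551A, Gadd45a and Chac1 were lower, and Tnfrsf1b was not called. Of all 29 genes, 24 had no overlap between the Dex libraries of the lines (49.3% of genes tested) and 24 none between the EtOH libraries (54.1%). The EtOH and Dex contrasts share their libraries with the difference, so a gene that reads high in Y551A EtOH by error leans to a more negative difference.

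**Figure D3:**
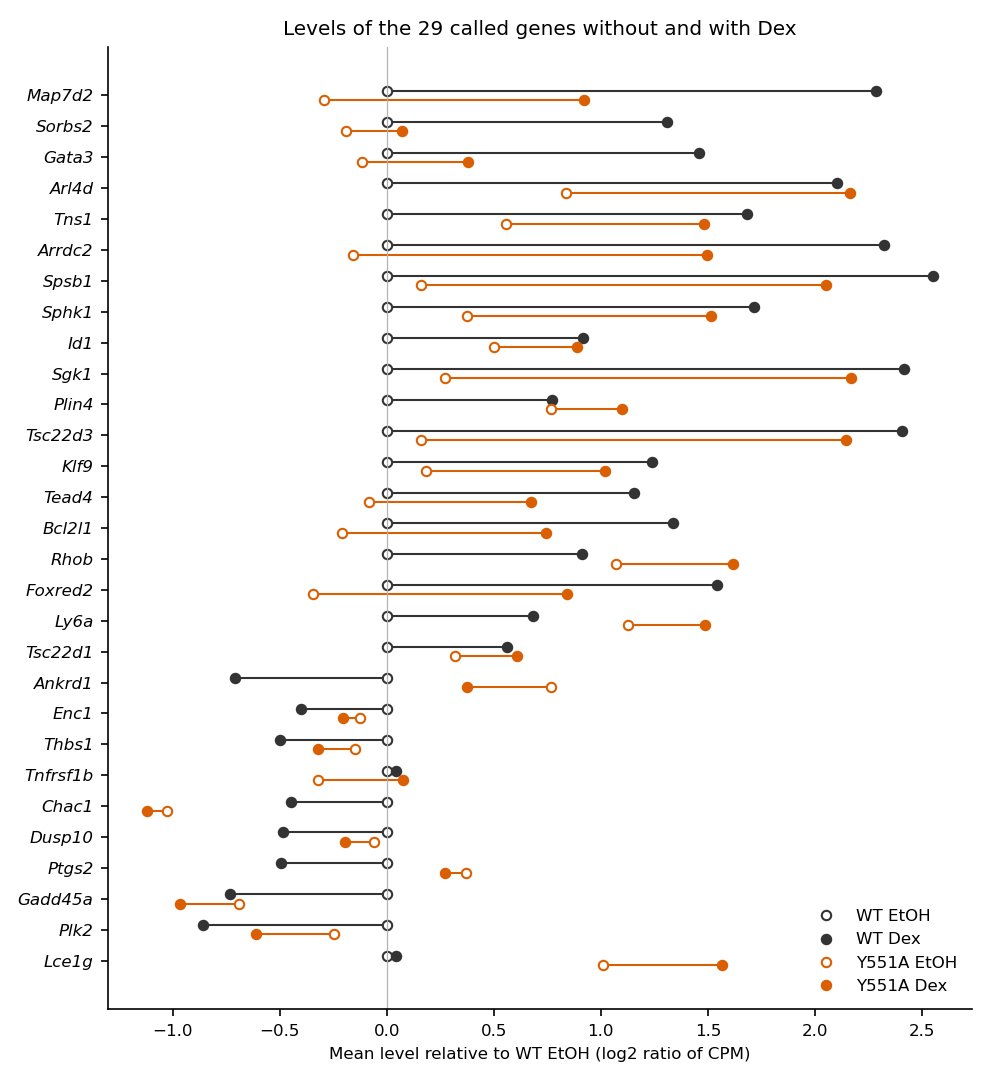
Mean level of the 29 called genes in the 4 groups, as the log2 ratio of CPM to WT EtOH (horizontal axis); open circles are EtOH, filled circles Dex, dark WT and orange Y551A, and each line joins the EtOH and Dex means of one cell line. Genes are ordered by the difference of response, from Map7d2 (-1.08) to Lce1g (0.51). In Rhob, Ly6a and Plin4 both orange circles lie to the right of the dark circle of the same treatment.

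A list of responsive genes that does not use the WT libraries of the difference came from set 2, which holds a second WT with 2 libraries per treatment, 60277930 to 70499796 counted reads each. There Dex changed 302 of 17535 genes (236 up, 1.35%, and 66 down, 0.376%; 1.72% in all), of which 234 and 66 were tested in set 1. Over the 234 induced genes the median log2 response was 0.62 in the WT of set 2, 0.55 in the WT of set 1 and 0.38 in Y551A. The median difference, Y551A minus WT of set 1, was -0.12 (quartiles -0.28 and -0.03), and 190 of the 234 (81.2%) lay below 0, against 44.9% of all genes tested, whose median was 0.01. Over the 66 repressed genes the medians were -0.45, -0.41 and -0.24, the median difference was 0.17, and 2 (3.03%) lay below 0. Called differences numbered 19 lower and 1 higher among the induced genes and 6 higher among the repressed ones. The median response of Y551A was 68.4% of that of WT for induced and 57.8% for repressed genes.

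**Figure D4:**
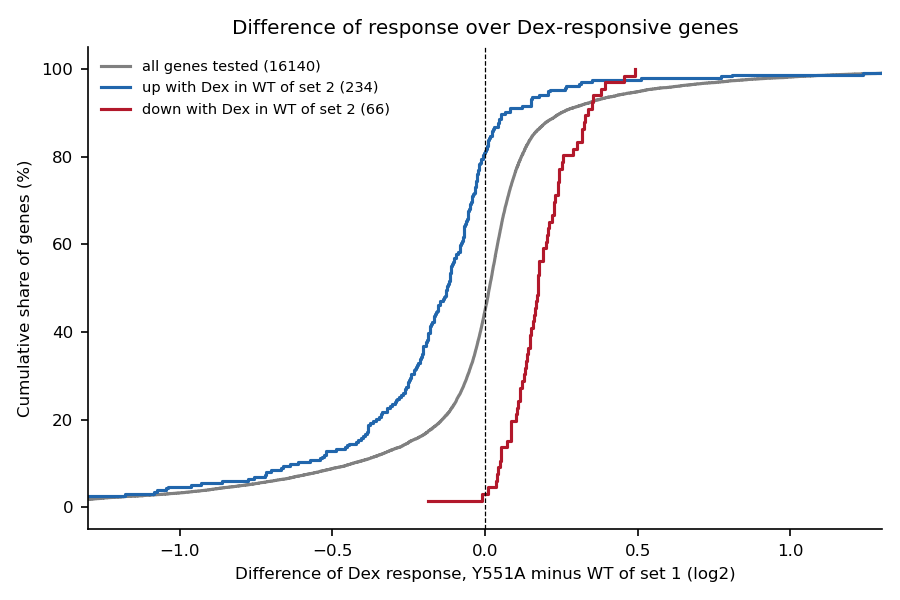
Cumulative share of genes (vertical axis, %) by the difference of Dex response, Y551A minus WT of set 1 (horizontal axis, log2), for all 16140 genes tested, the 234 induced and the 66 repressed in the WT of set 2. The induced curve lies to the left of that of all genes, with 81.2% of genes below 0, and the repressed curve to the right, with 3.03% below 0; values beyond the axis are not drawn.

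Among induced genes the log2 difference was larger in the bins of larger response. In genes induced less than 1.5-fold in the WT of set 2 its median was -0.06 (111 genes), from 1.5- to 2-fold -0.18 (57 genes), from 2- to 4-fold -0.38 (33 genes) and above 4-fold -0.52 (33 genes), where 26 lay below 0. As a share of the WT median, the Y551A median of these bins was 83.9%, 75.6%, 77.4% and 78%. Among repressed genes the median difference did not move with the size of the response, at 0.17 under 1.5-fold (48 genes), 0.17 from 1.5- to 2-fold (16 genes) and 0.19 from 2- to 4-fold (2 genes). The bin of genes induced above 4-fold nevertheless included strong responders whose difference was not called. Ccn2, a matricellular protein gene, read 12.1, 11.1 and 12.7 CPM in WT EtOH and 291, 283 and 293 CPM in WT Dex, against 7.56, 8.08 and 7.01 CPM in Y551A EtOH and 174, 166 and 165 CPM in Y551A Dex. Its Dex level was lower in Y551A, but so was its EtOH level. For Ccn2 the difference was -0.12 ± 0.0811 log2 (SE, edgeR adjusted p = 0.893), from responses of 4.59 in WT and 4.47 in Y551A. Per1, a clock gene with a GR element, read 3.18, 3.48 and 4.60 CPM in WT EtOH and 30.1, 32.5 and 30.4 CPM in WT Dex, against 3.44, 4.84 and 4.997 CPM in Y551A EtOH and 38.03, 28.4 and 28.2 CPM in Y551A Dex. Its Dex levels overlapped between lines. For Per1 the difference was -0.23 ± 0.183 log2 (SE, edgeR adjusted p = 0.901), from responses of 3.06 in WT and 2.83 in Y551A. Lcn2 (0.35 ± 0.612) and Fabp4 (0.31 ± 0.281), an iron-siderophore carrier and a fatty acid carrier, had wide errors (log2 difference ± SE, edgeR adjusted p = 0.971 and 0.917). The difference of Orm3, an acute-phase gene, was -0.35 ± 0.153 log2 (SE, edgeR adjusted p = 0.75).

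Other names of the GR response were not called either. Log2 differences were -0.38 ± 0.0965 for Dusp1, the phosphatase that switches off p38, -0.38 ± 0.182 for the metallothionein Mt1, -0.28 ± 0.0827 for the cell cycle inhibitor Cdkn1a, -0.19 ± 0.0624 for Errfi1, an inhibitor of the EGF receptor, -0.13 ± 0.0538 for the transglutaminase Tgm2 and -0.11 ± 0.0712 for glutamine synthetase, Glul (SE, edgeR adjusted p = 0.154, 0.782, 0.365, 0.542, 0.733 and 0.869). On the repressed side Plau stood at 0.34 ± 0.101, Phlda1 at 0.23 ± 0.104, Ccl2 at 0.22 ± 0.107 and Myc at 0.20 ± 0.0784 (edgeR adjusted p = 0.372, 0.774, 0.788 and 0.718). Cxcl1 (-0.19) and Hras (-0.05) were not called (edgeR adjusted p = 0.912 and 0.939). Of 19 genes with an adjusted p between 0.05 and 0.1, 12 had a more negative and 7 a more positive response in Y551A. The negative ones included Fkbp5 (-0.29), the Hsp90 co-chaperone that dampens GR, as well as Sik1 (-0.53), Apobec1 (-0.45), Ell2 (-0.34), Zfand5 (-0.26), Eef2k (-0.26), Dhrs9 (-0.26) and Neat1 (-1.18). The positive ones were Spry1 (0.39), Rab30 (0.35), Rnd3 (0.31), Tmem268 (0.31), Cdon (0.22), Bvht (0.54) and Nr3c1 itself (0.19 ± 0.0435, edgeR adjusted p = 0.0705).

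Gene lists show how the difference was spread over pathways, each beside the 0.180% of all genes that were called. The lists were drawn up with earlier results of these data known. Over all genes tested, Dex raised 323 (2.00%) and lowered 226 (1.40%) in WT, and raised 230 (1.43%) and lowered 67 (0.415%) in Y551A. Fewer calls of a fall in Y551A were thus seen over all genes, and no list was tested against that. Of the 39 tested genes on the list of classic GR-induced genes, 31 rose in WT and 29 in Y551A, and 5 had a called difference, all more negative. Their median difference was -0.23, with median responses of 1.02 in WT and 0.88 in Y551A. Of 22 genes of growth factor feedback and EGF receptor ligands, 11 fell and 1 rose in WT and 7 fell in Y551A, with Dusp10 called as more positive (median difference 0.13). Of 24 immediate early and AP-1 genes, 11 fell and 1 rose in WT and 5 fell in Y551A, and no difference was called (median 0.13, Klf4 at 0.32 with edgeR adjusted p = 0.677). Of 18 inflammatory and NF-kB targets, 5 fell and 1 rose in WT and 2 fell in Y551A, with Ptgs2 called (median 0.16, Csf1 at 0.18 with edgeR adjusted p = 0.344). Of 25 YAP and TGF-beta targets, 5 rose and 11 fell in WT and 4 rose and 6 fell in Y551A. Ankrd1 was called as more positive there and Tead4 and Id1 as more negative (median 0.13).

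The other lists are given by their counts. Gadd45a and Plk2 were called among 22 tested p53 and growth arrest genes, Chac1 among 16 of the integrated stress response (Sesn2 0.17, edgeR adjusted p = 0.856), Thbs1 among 23 of extracellular matrix and Gata3 among 8 luminal genes (Krt7 -1.46 ± 0.752, edgeR adjusted p = 0.812). No difference was called among 18 clock genes, 4 of which rose in WT and 5 in Y551A (median -0.02, Bhlhe40 0.26 and Bhlhe41 -0.17, edgeR adjusted p = 0.163 and 0.74). None was called among 19 GR chaperones (Hspa1b 0.27), 31 coregulators (Smarca2 0.18, Ncoa1 0.19), 27 genes of glucose and glutamine metabolism (Pdk4 -0.37, Slc38a1 0.17), 24 of cholesterol synthesis and 30 of the cell cycle (Foxm1 0.15, Plk1 0.15). The same held for 8 basal epithelial (Snai2 0.38, Krt14 0.24), 7 fibroblast (Pdgfrb 0.23, Col1a1 0.72), 5 immune (Lyz2 -0.20, Cd14 -0.10) and 3 endothelial genes (Pecam1 -2.13 ± 1.07, Emcn 0.26). EdgeR adjusted p-values of the genes in the last 2 sentences ran from 0.241 to 0.949. Krt14 stood at 2.46 to 3.55 CPM in WT and 18.1 to 19.7 CPM in Y551A. Trp63, another basal marker, went the other way, at 1.17 to 2.09 CPM in WT and 0.192 to 0.47 CPM in Y551A. Acta2 overlapped between lines (0.161 to 0.728 and 0.196 to 0.577 CPM), and Krt5 did not exceed 0.0415 CPM. The endothelial gene Cdh5 stood at 6.61 to 8.04 CPM in WT and 2.83 to 3.67 CPM in Y551A, while Pecam1 overlapped (0 to 0.302 and 0.0443 to 0.208 CPM). The part of these differences between lines in the results was not tested.

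The third line of set 1, Y551A-Dim, carries a further change that the labels name only as Dim. The contrast of its Dex response with that of Y551A shares the 6 Y551A libraries with the difference between Y551A and WT, so its values are set beside the others without a count. The log2 response of Sgk1 was 2.42 in WT and 1.90 in Y551A, and that of Y551A-Dim minus Y551A was -1.25 ± 0.0522 (SE). For Spsb1 the corresponding values were 2.55, 1.89 and -1.61 ± 0.115, and for Tsc22d3 they were 2.40, 1.99 and -1.27 ± 0.0721. Gata3, by contrast, responded with 1.46 in WT and 0.49 in Y551A, and its contrast of Y551A-Dim with Y551A (-0.50 ± 0.135) was not called (edgeR adjusted p = 0.126). That of Plk2 was 0.06 ± 0.0589 (edgeR adjusted p = 0.856). In all, 0.558% of genes were called in that contrast, 0.0991% as higher and 0.458% as lower.

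Over all 29 genes, the direction of the difference remained the same in each of the 12 fits that leave out 1 library, and 14 were called in all 12. With the WT of set 2 in place the fitted sign was the same for 29 of 29, although the value for Ptgs2 was only 5.2e-05, and 13 were called. That contrast keeps the Y551A libraries on which the 29 were called, so a shared sign is partly built in. By the separate fit of set 2, the WT response lay on the WT side of the Y551A response for 28 genes, Ptgs2 being the exception. The 14 genes called in all 12 fits were Sgk1, Arl4d, Plk2, Plin4, Gata3, Id1, Bcl2l1, Sphk1, Ankrd1, Spsb1, Klf9, Tsc22d3, Map7d2 and Tnfrsf1b. Without Y551A Dex replicate 1, the library that stood apart most, 32 genes were called, 26 of them among the 29; Dusp10, Ly6a and Enc1 were not. In the WT of set 2 itself the Dex response was called for all 19 induced genes and for 7 of the 10 others, against 1.72% of all genes, and the exceptions were Tnfrsf1b (0.19 log2), Ptgs2 (-0.10) and Enc1 (-0.13). All 19 and 8 of the 10 had been called in the WT of set 1 too, so this count describes the WT response and not the difference. The 7 include Lce1g, which rose by 0.40 log2 in the WT of set 2 and 0.04 in that of set 1.

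**Figure D5:**
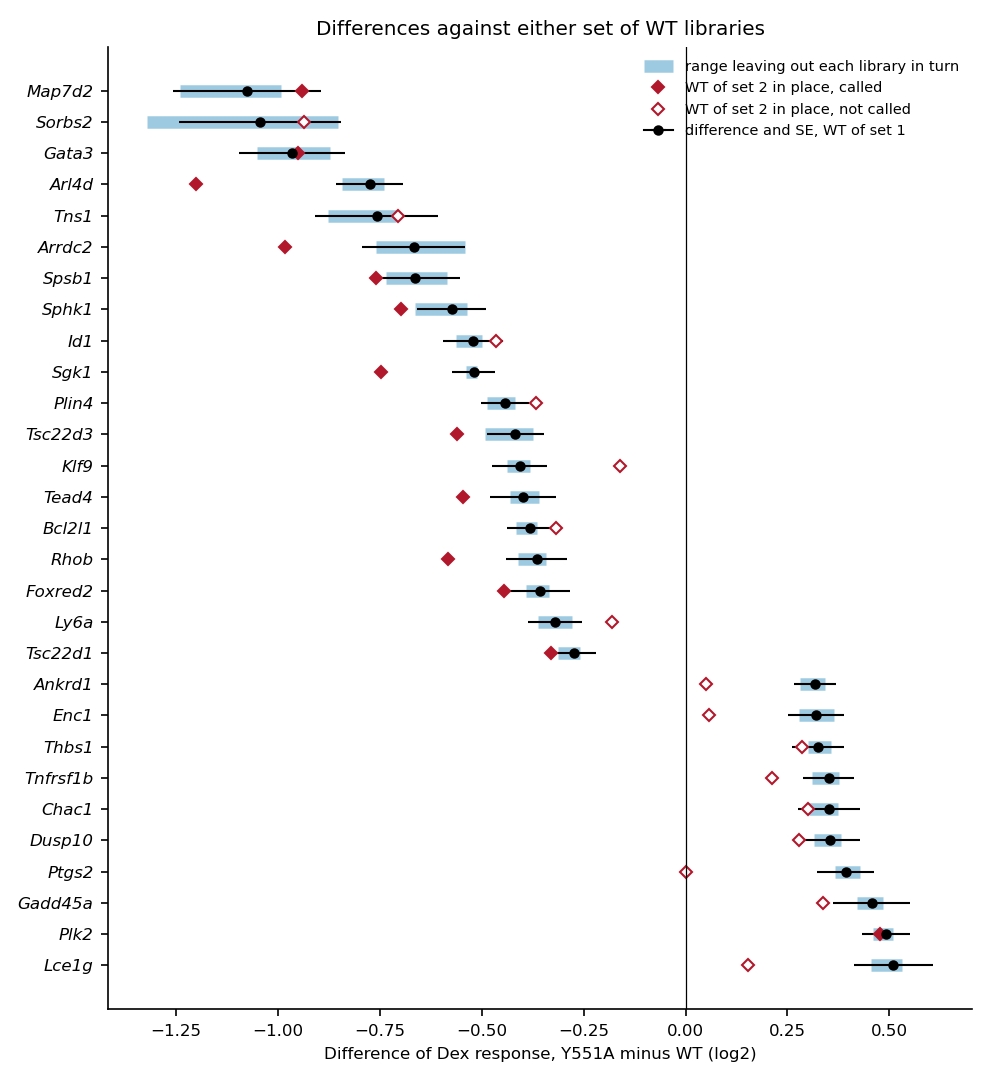
Difference of Dex response, Y551A minus WT (horizontal axis, log2), of the 29 called genes: black points and bars give the value and SE with the WT of set 1, blue bars the range when each of the 12 libraries is left out in turn, and diamonds the value with the WT of set 2 in place (filled where called, open where not). Sgk1 (-0.52 and -0.75) and Gata3 (-0.96 and -0.95) are called with either WT, and the diamonds of Ankrd1, Ptgs2 and Enc1 lie near 0.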

How the data were processed

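Total RNA of each library was sequenced as 100 bp paired reads. Per the submitters' processing notes, bcl2fastq 2.17, cutadapt, STAR, featureCounts and the mm10 build were used. Per the file headers, the authors ran featureCounts 2.0.3 over exons of GENCODE mouse release 21, summed by gene name in reverse-stranded mode with both mates counted, and deposited raw counts without normalization. The labels name 2 library kits used in 2 batches but assign no library to either, so batch could not be modelled. The spike-in reads were not analysed here.

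From these counts, all 18 libraries of set 1 (WT, Y551A and Y551A-Dim) were fitted with edgeR 4.0.16 in R 4.3.3: filterByExpr (16140 of 55341 gene names kept), TMM scaling, 1 mean per group, the quasi-likelihood test of the contrast and Benjamini-Hochberg adjustment over all genes kept. The biological coefficient of variation was 5.13% with 12 residual degrees of freedom. Set 2 (16 libraries of WT, D647V and D647V-Tetra, 17535 genes) was fitted separately. Only the fit that puts the WT of set 2 in place of that of set 1 joins both sets. The sets were taken from library numbers and file headers, and the labels do not say how each was made. The SE is the log2 change divided by the square root of its F statistic, and P-values are two-sided. The counting pools 108 gene names shared by several identifiers. The scripts were tested on simulated data. Alternatives were DESeq2 1.42.0, limma 3.58.1 (voom), other scaling, no filter, 12 libraries only, the replicate block and leaving out each library.

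The genes named are all those called, those with an adjusted p from 0.05 to 0.1 (predicted genes passed over), a set of known GR targets, and the 2 members of lowest p in each list, of which some are not reported here. Values per library are given for called genes that change at least 1.5-fold. The members and lists were chosen with earlier results of these data known.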

Additional observations from a re-analysis of the deposited data

Results flagged for a closer look

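The 29 genes below were listed because the test of the difference between the Dex responses of Y551A and WT itself passed an edgeR adjusted p of 0.05, 3 libraries per group. Log2 differences, Y551A minus WT, were -0.52 for Sgk1, -0.77 for Arl4d, -0.44 for Plin4, -0.96 for Gata3, -0.52 for Id1, -0.38 for Bcl2l1, -0.57 for Sphk1, -0.66 for Spsb1, -0.41 for Klf9, -0.42 for Tsc22d3 and -1.08 for Map7d2. They were -1.04 for Sorbs2, -0.67 for Arrdc2, -0.27 for Tsc22d1, -0.76 for Tns1, -0.40 for Tead4, -0.36 for Foxred2, -0.37 for Rhob and -0.32 for Ly6a. Positive differences were 0.49 for Plk2, 0.32 for Ankrd1, 0.35 for Tnfrsf1b, 0.39 for Ptgs2, 0.51 for Lce1g, 0.33 for Thbs1, 0.46 for Gadd45a, 0.35 for Dusp10, 0.32 for Enc1 and 0.35 for Chac1. Receptor transcript level and baseline differ between the lines with the receptor form, and their part was not tested.

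A further 13 values were listed because the Dex response of Y551A-Dim differed from that of Y551A by the same test. They were -1.25 for Sgk1, -0.87 for Arl4d, -0.29 for Bcl2l1, -0.83 for Sphk1, -1.61 for Spsb1, -0.77 for Klf9, -1.27 for Tsc22d3, -0.92 for Map7d2, -1.5 for Arrdc2, -0.56 for Tead4, -0.91 for Foxred2, -0.38 for Ly6a and 0.49 for Ankrd1. Over all genes tested, 0.558% were called in this contrast. It shares the Y551A libraries with the difference between Y551A and WT, so the number listed is not a result about these genes.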

How the results depend on the processing

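The count of 29 called differences was 70 with only the 12 libraries of WT and Y551A, 109 with no filter on low counts and 61 with DESeq2, each including all 29; it was 29 with DESeq2 size factors and 27 with limma-voom, which did not call Gadd45a, Enc1 and Chac1. Leaving out 1 library gave 17 to 32. With the WT of set 2 in place it was 31, of which 13 were shared. The cause of these changes was not tested. The 12-library fit uses fewer samples and leaves out those of Y551A-Dim. Same-numbered libraries did not deviate together (correlations -0.261 to 0.175, median -0.0573, and 0 libraries correlated best with their own number), so the numbers were not taken as pairs; with the replicate block 22 genes were called, and Tead4, Gadd45a, Rhob, Dusp10, Ly6a, Enc1 and Chac1 were not (edgeR adjusted p 0.0567 to 0.0697).

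For Y551A-Dim minus Y551A, 90 calls became 250 with no filter, 153 with DESeq2 and 69 to 222 leaving out 1 library, the highest without Y551A-Dim Dex replicate 3. The 302 calls of the WT of set 2 became 583 with no filter and 195 to 227 leaving out 1 library, each WT group then holding 1 library assumed to vary like the others. The total counts for the Dex responses of WT and Y551A and for the EtOH baseline stayed within 1.5 times under every alternative run, but the genes called lower with Dex did not: 226 in WT became 341 with no filter and 137, 136 and 146 without WT Dex replicate 1, WT Dex replicate 3 and WT EtOH replicate 3, and 67 in Y551A became 130 with no filter, 115 with 12 libraries and 42 without Y551A EtOH replicate 1.

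The median difference over the induced set 2 list (-0.124) was -0.113 with no filter, -0.205 with the WT of set 2 in place, where the list was chosen on those libraries, and -0.248 for genes changed at least 1.5-fold. It was -0.108 or -0.11 with the list from no filter or DESeq2, -0.143 to -0.124 leaving out 1 set 1 library and -0.129, -0.165, -0.154 and -0.166 when the list was chosen without 1 set 2 WT library. Over the repressed list (0.172) it was 0.238, 0.108 and 0.149 with the WT of set 2 in place and the lists from no filter and DESeq2, and 0.158 to 0.192 leaving out 1 library. Uncalled genes that changed sign with the WT of set 2 in place were Gm38162 (0.274), Tmem268 (-0.0426), Lcn2 (-0.158), Myc (-0.00772), Bhlhe41 (0.0744), Pecam1 (0.865) and Cd14 (0.00815); leaving out 1 library moved Lcn2 from -0.277, without Y551A EtOH replicate 2, to 2.26, without Y551A EtOH replicate 1. The cause was not tested. Depth limits genes of a few CPM, such as Lcn2 (SE 0.612) and Pecam1 (SE 1.07).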

Other observations

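Transcripts inside the Fkbp5 gene showed larger ratios than Fkbp5 itself. Fkbp5 (mm10 chromosome 17, 28399094 to 28517527, - strand) went from 85.9 ± 0.523 to 174 ± 2.34 CPM in WT and from 61.6 ± 1.99 to 102 ± 4.01 CPM in Y551A (SD, n = 3 each), a difference of responses of -0.29 ± 0.0658 log2 (SE, edgeR adjusted p = 0.0654). AC154912.3 (28457484 to 28461095) and AC154912.5 (28424723 to 28426430) lie on the same strand within it, and neither overlaps an annotated Fkbp5 exon. AC154912.3 went from 0.364 ± 0.0996 to 2.91 ± 0.265 CPM in WT and from 0.499 ± 0.128 to 1.07 ± 0.388 CPM in Y551A, a difference of -1.90 ± 0.431 (edgeR adjusted p = 0.0705). AC154912.5 went from 0.504 ± 0.0398 to 2.39 ± 0.32 CPM and from 0.486 ± 0.181 to 1.09 ± 0.33 CPM, a difference of -1.09 ± 0.41 (edgeR adjusted p = 0.687). Neither passed the threshold, both were chosen after their values were seen, and because they share strand and span with Fkbp5, reads of its unspliced transcript cannot be told apart from theirs.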
